A study of Mus musculus with 22 samples.

Results

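The postsynaptic scaffold genes described here are Dlg1, Dlg2, Dlg4, Dlgap1, Dlgap2, Shank2, Shank3, Magi1 and Magi2, which are 9 of the 21755 protein-coding genes of chromosomes 1 to 19 and X in GENCODE release M21. They were picked by name, and their bins are every 100 kb bin of the 5-methylcytosine (5mC) data and every 1 Mb bin of the 5-hydroxymethylcytosine (5hmC) data that overlaps the annotated gene (mm10, GRCm38). That gave 74 of 25664 bins of 100 kb, of which 57 lay wholly inside a gene, and 14 of 2581 bins of 1 Mb. No threshold on a level entered the choice, but the genes were proposed with results of these data known, so their levels and differences are given as descriptions without p-values. The libraries were made from cortex without hippocampus, whole olfactory bulb and whole cerebellum of female C57BL/6 mice at 8 weeks of age, each replicate from a separate mouse. In TAB-seq 5hmC is first glycosylated, so that it alone withstands a TET oxidation before bisulfite conversion and is read as C. TAB-seq was available with 3 libraries for each tissue. For oxBS-seq 5hmC is oxidized chemically beforehand, which leaves 5mC as the base read as C, and there were 3 cortex libraries and 2 each of olfactory bulb and cerebellum. The deposited level of a bin is a fraction from 0 to 1 without read counts, so the depth is unknown and the error given is the SD between libraries.

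Excitatory synapses carry a dense protein scaffold under the receiving membrane. Dlg proteins, which are membrane-associated guanylate kinases, bind the tails of glutamate receptors and their partners. Dlgap proteins link the guanylate kinase domain of Dlg proteins to Shank proteins, and Shank proteins reach on to Homer and the actin skeleton. Magi proteins are guanylate kinases with an inverted order of domains, found at synapses and at epithelial junctions. 5mC is placed on CG dinucleotides by DNA methyltransferases, and TET enzymes oxidize it to 5hmC, which is abundant in neurons and is known there from the bodies of expressed genes. A tissue is a mixture of cell types, so more modified cells and more modification per cell cannot be told apart in any result below. The identity of the tissues was not checked against marker genes, because no expression values were analysed here.

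The genes differ widely in size, which decides how much of a bin's level belongs to them. Dlg2 (ENSMUSG00000052572.17) is the longest with 1973 kb (chromosome 7, 90476672 to 92449247, plus strand), and it overlaps 21 bins of 100 kb. Magi2 (ENSMUSG00000040003.18, chromosome 5, 19227036 to 20704792, plus strand) covers 1478 kb with 16 bins. Dlgap1 (ENSMUSG00000003279.17, chromosome 17, 69969073 to 70821413, plus strand) has 10 bins, and Dlgap2 (ENSMUSG00000047495.15, chromosome 8, 14095865 to 14847680, plus strand) has 9. Magi1 (ENSMUSG00000045095.16) is the only one on the minus strand, on chromosome 6 from 93675455 to 94283917 with 7 bins. Shank2 (ENSMUSG00000037541.21, chromosome 7, 144001928 to 144424494, plus strand) has 5 bins and Dlg1 (ENSMUSG00000022770.17, chromosome 16, 31663443 to 31875129, plus strand) has 3. Shank3 (ENSMUSG00000022623.16, chromosome 15, 89499623 to 89560261, plus strand) fills only 30.3% of its 2 bins, which also touch 9 other coding genes. Dlg4 (ENSMUSG00000020886.17, chromosome 11, 70016942 to 70047522, plus strand) fills 30.6% of its 1 bin, shared with 5 other coding genes. In the 1 Mb bins of 5hmC these shares drop to 6.06% for Shank3 and 3.06% for Dlg4, against 73.9% for Magi2, 75.2% for Dlgap2 and 65.8% for Dlg2. The 5hmC values of Shank3 and Dlg4 are therefore values of their neighbourhoods.

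Several of these genes have start sites deep inside the annotated gene, and the level along the gene was low in some bins that hold one. RefSeq promoters (GRCm38.p6, 250 bases before to 50 after the start) were matched for 7 of the 9 genes, 17 promoters in all, and for Dlgap2 and Shank2 none was matched. The promoters below are those of the bins to which the results on Magi2, Dlgap1, Dlg2 and Shank3 turn, all on the plus strand, with CG dinucleotides, the sites that 5mC and 5hmC mostly occupy, in capitals.
Magi2 upstream start, chr5:19226796-19227095: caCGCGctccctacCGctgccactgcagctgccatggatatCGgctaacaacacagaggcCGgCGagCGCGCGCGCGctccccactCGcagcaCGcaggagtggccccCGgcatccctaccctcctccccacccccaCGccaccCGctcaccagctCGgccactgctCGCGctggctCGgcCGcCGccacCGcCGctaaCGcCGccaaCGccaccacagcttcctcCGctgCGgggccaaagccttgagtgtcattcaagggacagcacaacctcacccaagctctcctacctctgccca
Magi2 internal start, chr5:19907268-19907567: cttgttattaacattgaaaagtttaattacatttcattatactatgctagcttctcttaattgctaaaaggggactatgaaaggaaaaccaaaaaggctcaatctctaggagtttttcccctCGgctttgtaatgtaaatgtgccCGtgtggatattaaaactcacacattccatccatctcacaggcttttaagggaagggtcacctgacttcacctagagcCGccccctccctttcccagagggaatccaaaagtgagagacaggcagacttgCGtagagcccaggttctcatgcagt
Dlgap1 upstream start, chr17:69968823-69969122: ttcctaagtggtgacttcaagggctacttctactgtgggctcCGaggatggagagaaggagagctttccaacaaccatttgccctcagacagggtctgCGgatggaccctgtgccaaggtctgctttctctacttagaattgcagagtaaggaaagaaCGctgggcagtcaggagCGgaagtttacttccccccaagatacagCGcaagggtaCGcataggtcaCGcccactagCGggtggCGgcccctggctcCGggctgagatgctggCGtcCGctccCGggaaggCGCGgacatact
Dlgap1 internal start, chr17:70561497-70561796: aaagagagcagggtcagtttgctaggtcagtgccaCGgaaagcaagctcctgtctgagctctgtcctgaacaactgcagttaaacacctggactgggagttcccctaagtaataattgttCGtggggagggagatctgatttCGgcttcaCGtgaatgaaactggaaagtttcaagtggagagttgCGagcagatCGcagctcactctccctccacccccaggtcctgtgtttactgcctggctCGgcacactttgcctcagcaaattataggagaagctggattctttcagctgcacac
Dlg2 internal start in the high stretch, chr7:91090536-91090835: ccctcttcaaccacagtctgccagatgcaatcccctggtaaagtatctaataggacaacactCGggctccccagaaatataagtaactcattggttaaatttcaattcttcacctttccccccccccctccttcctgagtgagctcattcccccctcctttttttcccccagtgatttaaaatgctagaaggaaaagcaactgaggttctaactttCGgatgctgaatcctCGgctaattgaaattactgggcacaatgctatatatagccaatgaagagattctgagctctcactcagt
Dlg2 last internal start, chr7:92234720-92235019: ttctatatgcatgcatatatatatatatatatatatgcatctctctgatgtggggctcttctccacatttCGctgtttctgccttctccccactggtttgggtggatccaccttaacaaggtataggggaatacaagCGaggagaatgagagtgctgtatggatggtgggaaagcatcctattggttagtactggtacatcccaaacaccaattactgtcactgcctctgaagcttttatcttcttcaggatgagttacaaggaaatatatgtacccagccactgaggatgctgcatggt
Shank3 start, chr15:89499358-89499657: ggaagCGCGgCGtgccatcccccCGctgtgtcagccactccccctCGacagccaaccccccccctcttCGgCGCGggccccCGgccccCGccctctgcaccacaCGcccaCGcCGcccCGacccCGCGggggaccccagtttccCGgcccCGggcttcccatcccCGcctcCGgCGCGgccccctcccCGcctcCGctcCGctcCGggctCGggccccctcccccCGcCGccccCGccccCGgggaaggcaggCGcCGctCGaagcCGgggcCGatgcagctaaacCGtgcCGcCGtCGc
The upstream promoter of Magi2 holds 29 CG dinucleotides and its internal promoter 4. The promoters of Dlgap1 hold 15 and 7. The promoters of Dlg2 printed here hold 3 and 2, and its other internal promoter, with the start at 92062394, holds 1. The Shank3 promoter holds 40, a number that 3.91% of 32851 RefSeq promoters reach. The median promoter holds 7. Each window of 300 bases is a small part of a 100 kb bin, so the level of a bin is not the level of the promoter in it.

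In cortex and olfactory bulb the 5mC level of all 9 genes lay below the mean of all bins of the same tissue, and in cerebellum 4 of them lay above it. The mean of all 100 kb bins was 0.677 ± 0.0147 (SD, n = 3) in cortex beside 0.707 ± 0.00286 (SD, n = 2) in olfactory bulb, while cerebellum had 0.731 ± 0.0114 (SD, n = 2). The median over the 9 genes was 0.592 in cortex, with 0.611 in olfactory bulb and 0.695 in cerebellum, beside 0.631, 0.664 and 0.685 over 21718 coding genes. Gene medians lie under the mean of all bins also for coding genes at large. The genes above the cerebellar mean were Dlg2, Dlgap2, Magi1 and Magi2. The replicate 3 library of cortex stood apart from the others, with a mean of 0.660 over all bins, and it had the lowest level of the cortex libraries for all 9 genes.

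**Figure D1:**
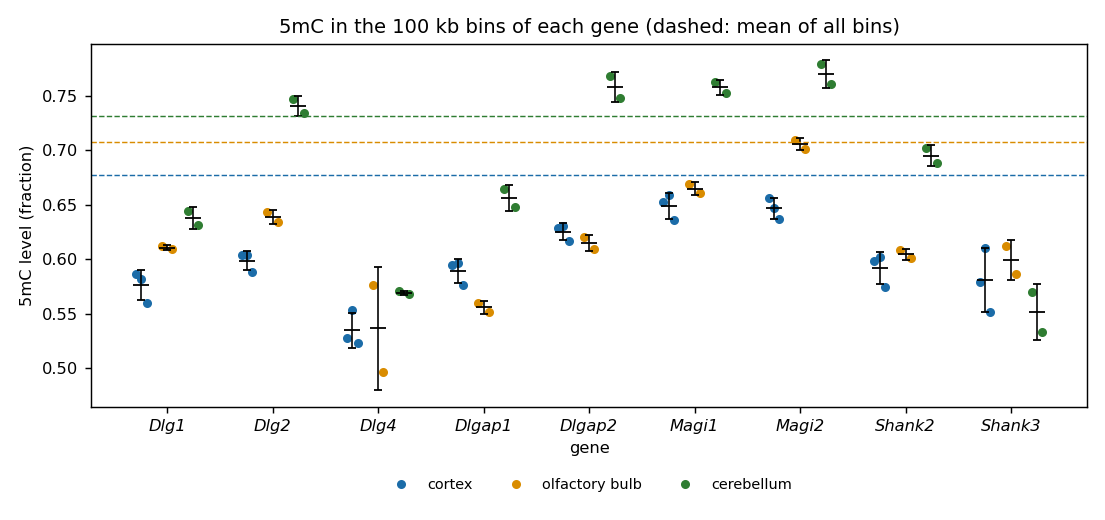
5mC level (fraction, y axis) of the 9 genes (x axis) in each oxBS-seq library, 1 point per library, with the tissue mean and SD as bars and the mean of all bins of each tissue dashed. The cerebellum points lie apart above the others for all genes but Dlg4 and Shank3, and Shank3 is the gene whose cerebellum mean is the lowest of the 3 tissues.

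Among the Dlg genes, Dlg2, whose product is a scaffold of the same family as the protein of Dlg4, had the widest distance between tissues. Its level was 0.604, 0.603 and 0.588 in the cortex libraries, 0.643 and 0.634 in olfactory bulb, and 0.747 and 0.734 in cerebellum. The tissues did not overlap, and the cerebellum libraries lay far above both others. The mean differences were 0.142 between cerebellum and cortex, 0.102 between cerebellum and olfactory bulb and 0.0399 between olfactory bulb and cortex. Dlg1, which encodes a scaffold present at synapses and in epithelia, was at 0.586, 0.582 and 0.560 in cortex, then 0.612 and 0.609 in olfactory bulb, and 0.645 and 0.631 in cerebellum. The same order of tissues as in Dlg2 was seen, with a smaller step of 0.0617 between cerebellum and cortex. Dlg4, which encodes the most abundant scaffold of the excitatory synapse, was read in 1 bin at 0.528, 0.553 and 0.523 in cortex, with 0.576 and 0.497 in olfactory bulb and 0.570 and 0.568 in cerebellum. Its olfactory bulb libraries enclosed the values of all the others, so that only cerebellum and cortex were apart, by 0.0342.

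The Dlgap genes were the 2 whose mean was lower in olfactory bulb than in cortex. Dlgap1 had 5mC levels of 0.595, 0.596 and 0.576 in cortex, then 0.560 and 0.552 in olfactory bulb, and 0.664 and 0.648 in cerebellum. Both olfactory bulb libraries were below every cortex library, with a difference of the means of -0.0333, while all bins together were higher in olfactory bulb by 0.0301. Of 1564 coding genes with at least 3 bins, 4.41% had a lower difference. Dlgap2 was at 0.628, 0.631 and 0.616 in cortex, with 0.620 and 0.609 in olfactory bulb and 0.768 and 0.748 in cerebellum. Here cortex and olfactory bulb overlapped, and cerebellum was higher than cortex by 0.133 and higher than olfactory bulb by 0.143, the largest difference from olfactory bulb among the 9 genes. The libraries of Dlgap2 thus fell into cerebellum and the rest, and those of Dlgap1 lay on 3 separate levels.

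The 2 Shank genes differed in the place of cerebellum among the tissues. Shank2 was at 0.598, 0.602 and 0.575 in cortex, then 0.608 and 0.601 in olfactory bulb, and 0.701 and 0.688 in cerebellum. Cortex and olfactory bulb overlapped, and cerebellum was higher than cortex by 0.103. Shank3, whose loss in people causes a developmental disorder with autism, was at 0.579, 0.611 and 0.552 in cortex, with 0.612 and 0.586 in olfactory bulb and 0.570 and 0.533 in cerebellum. Both cerebellum libraries were below both olfactory bulb libraries, with a difference of the means of -0.0476, but they overlapped with cortex, from which the mean differed by -0.0290 with a combined SD of 0.0392. As Shank3 fills 30.3% of these 2 bins, most of that value belongs to sequence outside the gene.

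Both Magi genes were highest in cerebellum. Magi1 was at 0.652, 0.659 and 0.636 in cortex, then 0.669 and 0.660 in olfactory bulb, and 0.762 and 0.753 in cerebellum, so that cortex and olfactory bulb were only just apart. Magi2, which encodes a scaffold of neuronal synapses and of the kidney filter, was at 0.656, 0.647 and 0.637 in cortex, with 0.709 and 0.701 in olfactory bulb and 0.778 and 0.761 in cerebellum. It had the largest difference between olfactory bulb and cortex of the 9 genes, 0.0586, and the highest level of all of them in olfactory bulb and cerebellum.

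Within a tissue, many neighbours in the order of levels did not differ beyond their libraries. In cortex Magi1 and Magi2 overlapped at the top, Dlgap2 followed apart from both, Dlg2, Shank2, Dlgap1, Shank3 and Dlg1 came next with each neighbour overlapping, and Dlg4 lay apart at the bottom. In olfactory bulb Magi2, Magi1 and Dlg2 were each apart from the next gene, and Dlgap1 and Dlg4 overlapped at the bottom. In cerebellum Magi2, Dlgap2 and Magi1 overlapped at the top, Dlg2, Shank2, Dlgap1 and Dlg1 followed each apart from the next, and Dlg4 and Shank3 overlapped at the bottom. Dlgap2 moved from rank 4 in olfactory bulb to rank 2 in cerebellum, and Shank3 from rank 7 to rank 9.

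To count bins, the difference in each bin was tested with limma on log2(level/(1 − level)) over all 100 kb bins, and a bin was called where the Benjamini-Hochberg adjusted p was under 0.05. Between cerebellum and cortex, 66 of the 74 bins were called, 65 of them higher in cerebellum and 1 lower, beside 76.4% of all bins called, 71.9% higher and 4.44% lower. Between cerebellum and olfactory bulb, 59 were called, 57 of them higher and 2 lower, beside 43.0% of all bins called, 35.3% higher and 7.69% lower. Between olfactory bulb and cortex, 33 were called, 27 higher and 6 lower, beside 39.7% called, 37.6% higher and 2.18% lower. Of the 6 lower bins 3 belong to Dlgap1, 2 to Dlgap2 and 1 to Magi1. Counted by genes whose libraries do not overlap, 8 of 9 were higher in cerebellum than in cortex beside 65.1% of coding genes, 7 were higher and 1 lower than in olfactory bulb beside 43.2% and 22.1%, and 4 were higher and 1 lower in olfactory bulb than in cortex beside 57.4% and 2.28%. These counts describe genes proposed with these data known, and nothing is read from them against the background. The 3 pairs of tissues share libraries. The olfactory bulb counts rest on 2 libraries, and with replicate 1 or replicate 2 of olfactory bulb left out 8 or 13 bins were called against cortex, beside 13.0% or 16.3% of all bins, where the remaining library is assumed to vary like those of the other tissues. Without the replicate 3 library of cortex, 34 bins were called for olfactory bulb and 65 for cerebellum, beside 30.1% and 73.4% of all bins. The median of the 9 differences was 0.0156 for olfactory bulb minus cortex, 0.103 for cerebellum minus cortex and 0.0905 for cerebellum minus olfactory bulb. Without that cortex library the medians against cortex became 0.00433 and 0.0949. Over 21718 coding genes the medians were 0.0300, 0.0444 and 0.0118. With the mean of each library subtracted, the olfactory bulb median turned to -0.0145, and those of cerebellum were 0.0489 and 0.0663. With each library centred on its median in the test, 6 bins were called higher and 20 lower in olfactory bulb than in cortex, beside 8.81% and 9.9% of all bins under the same centring. In cerebellum 49 were then higher and 5 lower than in cortex, beside 25.7% and 24.3%, and 48 higher and 3 lower than in olfactory bulb, beside 22.1% and 21.3%.

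Along the long genes the difference between tissues was not even. The lowest and the highest bin of a gene are given by the mean of the 3 tissue levels, and a tissue in which another bin was lower or higher is named. Dlg2 had an unbroken run of 18 bins, from 90400001 to 92200000 on chromosome 7, that were called higher in cerebellum than in cortex. In that pair 71.9% of all bins were called higher. Over that run the level was 0.597 ± 0.00812 (SD, n = 3) in cortex, with 0.634 ± 0.00844 (SD, n = 2) in olfactory bulb, while cerebellum had 0.757 ± 0.0105 (SD, n = 2). The difference was widest in the bin from 91400001 to 91500000, wholly inside the gene, with 0.551 in cortex against 0.559 in olfactory bulb and 0.781 in cerebellum. In the bins around it cortex and olfactory bulb dipped together while cerebellum stayed near its level in the preceding bins. The run ended at the bin from 92200001 to 92300000, which holds the last internal start printed above. There cerebellum was at 0.600 ± 0.00101 (SD, n = 2), below olfactory bulb with 0.662 ± 0.00472 (SD, n = 2) and near cortex with 0.589 ± 0.0276 (SD, n = 3). It was the only bin of Dlg2 called lower in cerebellum than in olfactory bulb. The bins with the internal starts at 91090786 and 92062394 lie inside the run and had no such dip in cerebellum, with 0.761 and 0.775. The lowest bin of Dlg2 was the one at its annotated start, from 90400001 to 90500000, with 0.498 in cortex beside 0.532 in olfactory bulb and 0.574 in cerebellum, and the highest in the mean of the tissues was from 90700001 to 90800000, with 0.691, 0.745 and 0.786. The bin from 90500001 to 90600000 was higher in cortex, with 0.701, and in cerebellum.

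**Figure D2:**
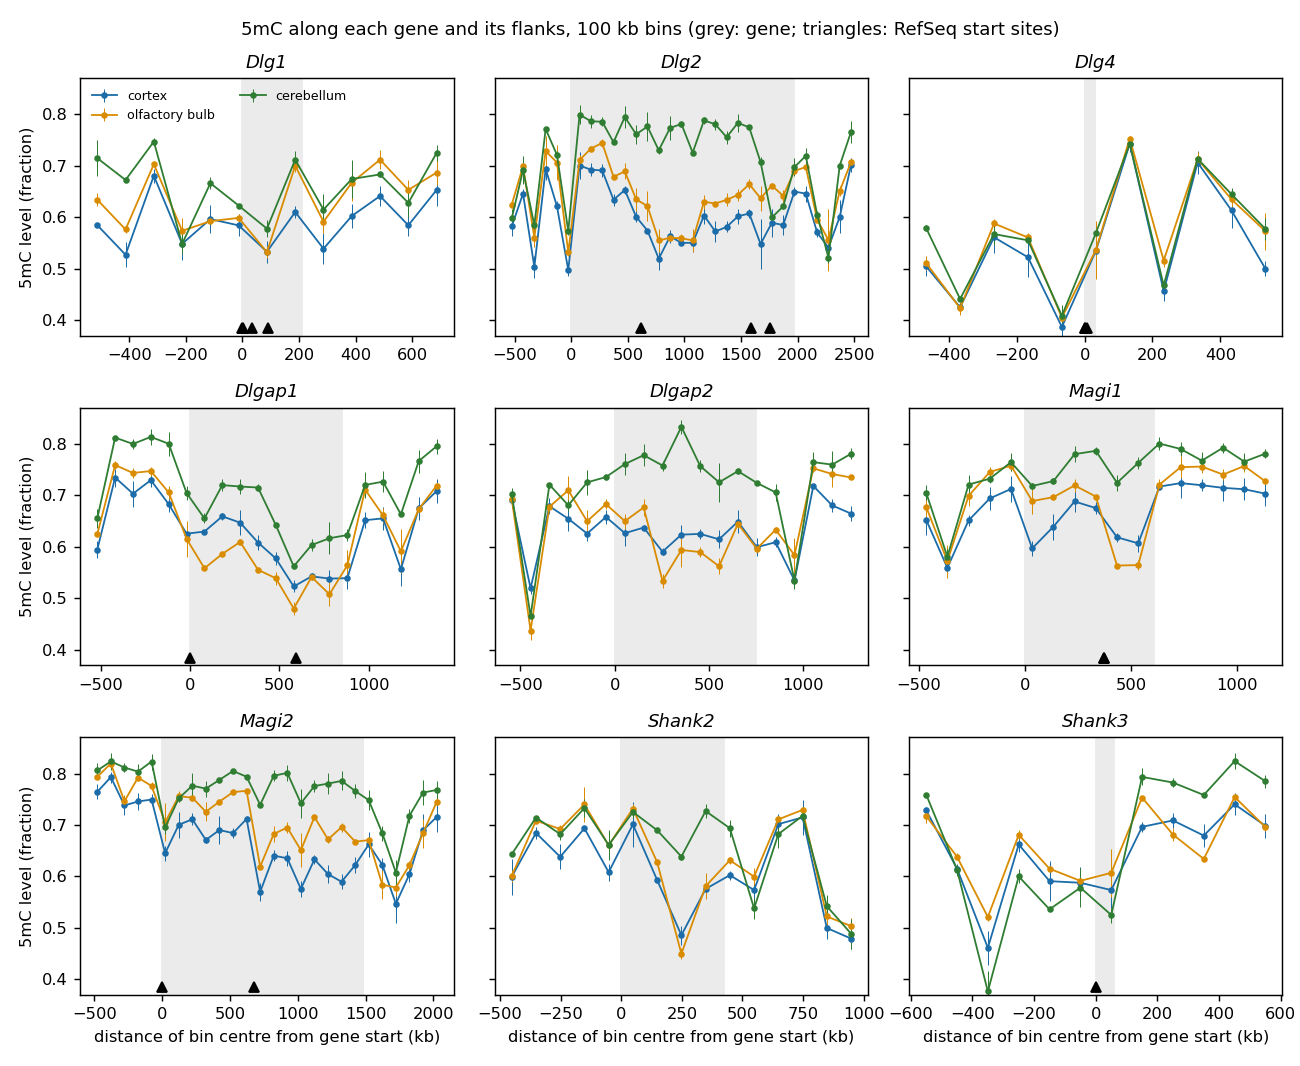
5mC level (fraction, y axis) of 100 kb bins along the 9 genes and 500 kb on either side, by distance of the bin's centre from the gene's start (kb, x axis), as tissue means with SD. Grey marks the gene and triangles mark RefSeq start sites. In Dlg2 the cerebellum line lies above cortex over the run of 18 called bins, most widely where cortex and olfactory bulb dip. In Dlgap1 the olfactory bulb line runs below cortex in all bins but the last.

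In Magi2 all 16 bins were called higher in cerebellum than in cortex, beside 71.9% of all bins. The differences lay between 0.0502 and 0.196, while the mean of all bins differed by 0.0543. The gap was small at the start of the gene and wider from the bin that holds the internal start up to the last bin but one. In the bin with the upstream start, from 19200001 to 19300000, the level was 0.645 in cortex, with 0.705 in olfactory bulb and 0.695 in cerebellum. The bin with the internal start, from 19900001 to 20000000, was the lowest in the mean of the tissues, though not in cerebellum, with 0.570 ± 0.0184 (SD, n = 3) in cortex against 0.619 ± 0.00475 (SD, n = 2) in olfactory bulb, while cerebellum had 0.739 ± 0.00201 (SD, n = 2). The bin just before it was the highest in that mean, with 0.712, 0.766 and 0.794, while in cerebellum the bin from 19700001 to 19800000 was higher with 0.805. The 9 bins from 19900001 to the end of the gene were all called higher in cerebellum than in olfactory bulb, by 0.0961 in the mean. In that pair 35.3% of all bins were called higher. The bin with the largest gap lay from 20500001 to 20600000, where the level was 0.590 in cortex beside 0.696 in olfactory bulb and 0.786 in cerebellum. In that bin olfactory bulb stood apart from cortex by 0.106, more than in any other bin of the gene.

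In Dlgap1 olfactory bulb was below cortex in 9 of 10 bins and below cerebellum in all 10. The bins from 70000001 to 70200000, just downstream of the first start, had 0.645 ± 0.00404 (SD, n = 3) in cortex, with 0.572 ± 0.000916 (SD, n = 2) in olfactory bulb, while cerebellum had 0.688 ± 0.0107 (SD, n = 2), and both were called lower in olfactory bulb than in cortex. The lowest bin, from 70500001 to 70600000, holds the internal start of Dlgap1 and had 0.523 in cortex against 0.480 in olfactory bulb and 0.562 in cerebellum. All 3 tissues dipped there. The bin of Dlgap1 with the highest mean over the tissues, from 70200001 to 70300000, had 0.647, 0.610 and 0.717. It was the highest in no single tissue, since the bin before it had 0.659 in cortex and 0.720 in cerebellum, and the first bin of the gene had 0.616 in olfactory bulb. The widest gap, 0.160 between cerebellum and olfactory bulb, was in the bin from 70300001 to 70400000. Only the last bin, from 70800001 to 70900000, was higher in olfactory bulb than in cortex, by 0.0249, and it was not called.

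In Dlgap2 all 9 bins were called higher in cerebellum than in cortex and olfactory bulb, beside 71.9% and 35.3% of all bins. Its cortex levels spanned only 0.591 to 0.658 along the gene. Cerebellum reached 0.833 ± 0.0138 (SD, n = 2) in the bin from 14400001 to 14500000, the highest level of any member bin, where cortex had 0.624 ± 0.0185 (SD, n = 3) and olfactory bulb 0.594 ± 0.0322 (SD, n = 2). The bin of lowest mean over the tissues, which was the lowest in cortex and olfactory bulb but not in cerebellum, was the one before it, from 14300001 to 14400000, with 0.591 in cortex beside 0.534 in olfactory bulb and 0.758 in cerebellum. It was called lower in olfactory bulb than in cortex, while the bin with the highest mean over the tissues, from 14200001 to 14300000, was at 0.638, 0.677 and 0.778. The mean of olfactory bulb thus lay above cortex in the first 3 bins of Dlgap2 and below it in the 6 others. Of these 9 bins 2 were called, both lower in olfactory bulb, and the other 7 were not.

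In Magi1 the sign of that difference also changed along the gene. There 2 bins were called higher in olfactory bulb than in cortex, 1 lower and 4 not called. In its bins nearest the start, from 94100001 to 94300000, olfactory bulb was above cortex by 0.0747 and both were called. In the bin with the lowest mean over the tissues, from 93800001 to 93900000, which was the lowest only in olfactory bulb, this tissue was at 0.564 ± 0.00365 (SD, n = 2), below cortex with 0.619 ± 0.00896 (SD, n = 3) and cerebellum with 0.725 ± 0.0157 (SD, n = 2). The RefSeq starts inside Magi1 are in the neighbouring bin upstream, from 93900001 to 94000000, which did not dip. The widest gap was in the bin from 93700001 to 93800000, with 0.607 in cortex against 0.565 in olfactory bulb and 0.763 in cerebellum. The highest bin, from 93600001 to 93700000, contains the gene's end and was at 0.717, 0.721 and 0.801. All 7 bins of Magi1 were called higher in cerebellum than in cortex, beside 71.9% of all bins.

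The shorter genes were read in few bins. In Shank2 the bin from 144200001 to 144300000 was both the lowest of the gene and the one with the widest gap, with 0.486 ± 0.0183 (SD, n = 3) in cortex against 0.450 ± 0.0108 (SD, n = 2) in olfactory bulb, while cerebellum had 0.639 ± 0.00597 (SD, n = 2). Its first bin, from 144000001 to 144100000, was the highest in the mean of the tissues with 0.701, 0.732 and 0.725, though the bin from 144300001 to 144400000 had 0.727 in cerebellum, and no pair of tissues was called there. In Dlg1 the last bin, from 31800001 to 31900000, had the largest difference from cortex, with 0.610 in cortex beside 0.700 in olfactory bulb and 0.712 in cerebellum. The middle bin of Dlg1, from 31700001 to 31800000, was its lowest with 0.533, 0.532 and 0.578. In Shank3 the bin with most of the gene, from 89500001 to 89600000, was called lower in cerebellum than in both other tissues, with 0.525 ± 0.0146 (SD, n = 2) against 0.573 ± 0.0352 (SD, n = 3) in cortex and 0.607 ± 0.0468 (SD, n = 2) in olfactory bulb. It was the only one of the 74 bins called lower in cerebellum than in cortex. The call against cortex was lost without replicate 1 or replicate 2 of cortex and with no filter on bins, with 0 bins then called lower. It was also lost when either cerebellum library was left out. The mean difference over both bins of Shank3 was then -0.0474 without replicate 1 and -0.0106 without replicate 2. The call against olfactory bulb was lost without replicate 1 of olfactory bulb. The bin with the promoter of Shank3, from 89400001 to 89500000, was at 0.588, 0.591 and 0.578, with no call.

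Against the 500 kb on either side, a comparison within each library that removes a shift of the whole library, all 9 genes were below their flanks in cortex in every library. In cerebellum 5 genes were above their flanks in both libraries. No such counts over all coding genes are given here, so these are not read as a trait of the set. For Dlg2 the gene minus its flanks was -0.0124 ± 0.00528 (SD, n = 3) in cortex and -0.0145 ± 0.00761 (SD, n = 2) in olfactory bulb, but 0.0722 ± 0.000397 (SD, n = 2) in cerebellum. For Dlgap2 cortex was at -0.0128 ± 0.00272 (SD, n = 3) and olfactory bulb at -0.0470 ± 0.00642 (SD, n = 2), while cerebellum was at 0.0737 ± 0.000599 (SD, n = 2). Other genes above their flanks in cerebellum were Shank2 by 0.0547, Magi1 by 0.0172 and Magi2 by 0.00880. Dlgap1 was below its flanks in every library of all tissues, most in olfactory bulb with -0.138 ± 0.00171 (SD, n = 2), against -0.0801 ± 0.00535 (SD, n = 3) in cortex and -0.0994 ± 0.00378 (SD, n = 2) in cerebellum. Shank3 was at -0.131 in cerebellum against -0.0775 in cortex, and Dlg1 lay between -0.0299 and -0.0199 in the 3 tissues. Dlg4 was at -0.00715 in cortex and had 1 library on either side of 0 in both other tissues. The flanks of the long genes hold other genes, and how these act on the difference was not tested.

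**Figure D3:**
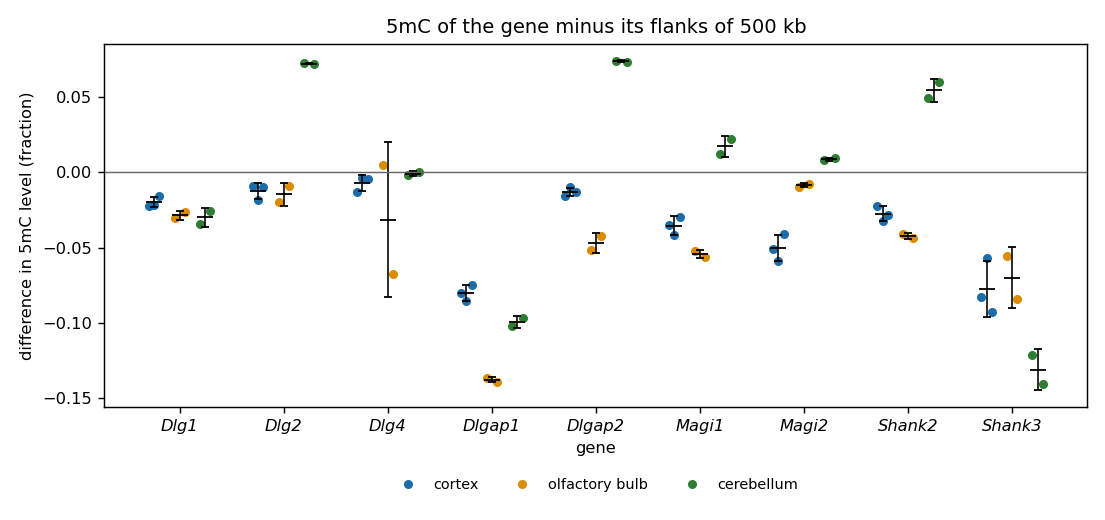
5mC level of each gene minus that of its 500 kb flanks (difference of fractions, y axis) for the 9 genes (x axis), 1 point per library, with the tissue mean and SD as bars. All cortex points lie below 0, and the cerebellum points of Dlg2, Dlgap2, Magi1, Magi2 and Shank2 lie above it.

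The number of CG dinucleotides along the genes differed as well. The 9 genes had between 5.52 CG per kb (Dlg2) and 17.1 CG per kb (Shank3) in the mean of their 100 kb bins, beside 8.34 over all bins. Over the 74 bins, which are neighbours on few chromosomes and not independent, Pearson's r between the 5mC level and CG per kb was -0.241 for cortex, -0.317 for olfactory bulb and -0.556 for cerebellum, beside -0.640, -0.639 and -0.625 over all 25664 bins. The difference between cerebellum and cortex had an r of -0.457 with CG per kb over the 74 bins and of -0.0646 over all bins. The part of CG density in the differences was not tested.

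The 5hmC levels, read in 1 Mb bins, were lower in cerebellum than in cortex and olfactory bulb for all 9 genes with no overlap of libraries, as they were for 98.2% and 90.0% of 21755 coding genes, while 0.0827% and 1.17% of coding genes were higher. The mean of all bins was 0.163 ± 0.00946 (SD, n = 3) in cortex, with 0.145 ± 0.00431 (SD, n = 3) in olfactory bulb, while cerebellum had 0.0949 ± 0.00176 (SD, n = 3). The median over the genes was 0.206, 0.201 and 0.130 in these tissues, beside 0.175, 0.149 and 0.107 over the coding genes. Every gene lay above the mean of all bins of its tissue, except Dlg4 in olfactory bulb. Of the 14 bins 13 were called between cerebellum and cortex, all lower in cerebellum, beside 98.1% of all bins called, 97.6% lower and 0.426% higher. Between cerebellum and olfactory bulb all 14 were called lower, beside 93.0% called, 91.8% lower and 1.2% higher. Between olfactory bulb and cortex 8 were called, 4 higher and 4 lower, beside 70.9% of all bins called, 3.25% higher and 67.7% lower. By genes, 2 were higher and 2 lower in olfactory bulb without overlap, beside 1.03% and 77.1% of coding genes. With each library centred on its median, 11 bins were called higher and 3 lower in cerebellum than in cortex, beside 50.3% and 40.1% of all bins. Against olfactory bulb 10 were then higher and 3 lower, beside 50.9% and 39.1%, and in olfactory bulb 10 were higher and 2 lower than in cortex, beside 36.2% and 33.0%.

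**Figure D4:**
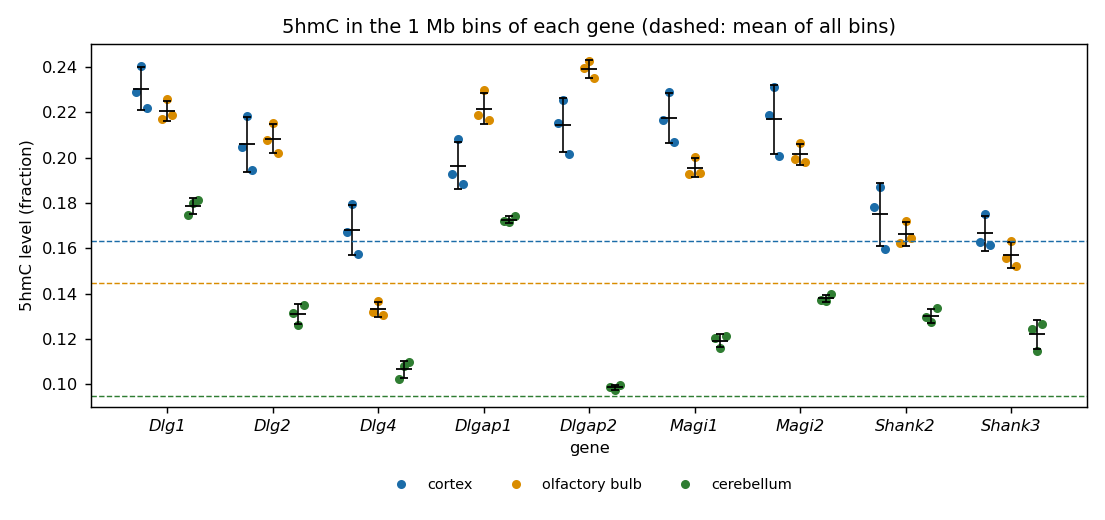
5hmC level (fraction, y axis) of the 1 Mb bins of the 9 genes (x axis) in each TAB-seq library, 1 point per library, with the tissue mean and SD as bars and the mean of all bins of each tissue dashed. Cerebellum is lowest for each gene, and Dlgap2 has the highest olfactory bulb level and the lowest cerebellum level of the 9 genes.

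Dlgap2 had the widest range of 5hmC. Its bin was at 0.215, 0.226 and 0.202 in cortex, with 0.240, 0.243 and 0.235 in olfactory bulb and 0.0988, 0.0973 and 0.0996 in cerebellum. Olfactory bulb lay above every cortex library, and cerebellum was at less than every other value of the gene. The difference was -0.116 from cortex to cerebellum and -0.141 from olfactory bulb to cerebellum, and 0.777% and 0.046% of coding genes had a lower difference in those pairs. Relative to the mean of all bins, Dlgap2 was higher by 0.0511 in cortex, by 0.0945 in olfactory bulb and by 0.00372 in cerebellum.

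In Dlgap1 cerebellum was nearest to cortex. Its libraries were at 0.193, 0.208 and 0.188 in cortex, then 0.219, 0.230 and 0.217 in olfactory bulb, and 0.172, 0.171 and 0.174 in cerebellum. Olfactory bulb was above cortex by 0.0252 without overlap, as for Dlgap2 with 0.0249. The difference between cerebellum and cortex was -0.0239, the smallest in size of the 9 genes, while the mean of all bins differed by -0.0683. In the bin from 70000001 to 71000000, which lies inside Dlgap1 for 82.1% of its length, cerebellum and cortex were not called apart, with 0.214 and 0.219, while olfactory bulb was at 0.252.

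Dlg1, in the only bin it touches, had the highest 5hmC level of the 9 genes in cortex and cerebellum, with 0.231 ± 0.00947 (SD, n = 3) and 0.179 ± 0.00345 (SD, n = 3), but covers 21.2% of that bin. Magi1 was at 0.217, 0.229 and 0.207 in cortex, with 0.193, 0.2003 and 0.193 in olfactory bulb and 0.120, 0.116 and 0.121 in cerebellum. It was the one long gene with olfactory bulb below every cortex library, with a difference of -0.0221. Magi2 was at 0.217 ± 0.0152 (SD, n = 3), 0.201 ± 0.00448 (SD, n = 3) and 0.138 ± 0.00162 (SD, n = 3) in cortex, olfactory bulb and cerebellum. Its downstream bin, from 20000001 to 21000000, was higher than its upstream bin in each tissue, with 0.249 against 0.185 for cortex, 0.236 against 0.167 for olfactory bulb and 0.150 against 0.125 for cerebellum. Shank2 was at 0.175, 0.166 and 0.130, and Shank3 at 0.167, 0.157 and 0.122, with cortex and olfactory bulb overlapping in both. Dlg4 was at 0.168, 0.133 and 0.107, with no overlap between the tissues.

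Dlg2 differed from bin to bin in 5hmC. The bin from 91000001 to 92000000, which lies wholly inside the gene, was at 0.219 in cortex against 0.253 in olfactory bulb and 0.111 in cerebellum. It was called higher in olfactory bulb than in cortex, and it is the stretch in which cerebellum had the highest 5mC over the other tissues. The upstream bin, from 90000001 to 91000000, was at 0.197, 0.175 and 0.118 and was called lower in olfactory bulb than in cortex. The downstream bin, from 92000001 to 93000000, was at 0.202, 0.197 and 0.164, with the smallest distance between cerebellum and cortex of the 3 bins.

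Both marks could be set side by side after averaging the 5mC bins into the 1 Mb bins of 5hmC. Between cerebellum and cortex the means of the marks differed in opposite directions in 14 of 14 member bins and in 2375 of all 2581 bins. In all of the former 5mC was higher and 5hmC lower. The Shank3 bin differed by only 0.00719 in 5mC, with SDs of 0.0147 in cortex and 0.0162 in cerebellum. The Dlgap1 bin from 70000001 to 71000000 differed by -0.00556 in 5hmC, which was not called. Pearson's r between the differences of the marks was -0.667 over the 14 bins and -0.723 over all bins, given as a description since bins of one gene share libraries and sequence. The inner bin of Dlg2 lay outermost, with a difference of 0.194 in 5mC and of -0.108 in 5hmC. The bin of Dlgap2 followed the same course, with 0.129 in 5mC and -0.116 in 5hmC. Between olfactory bulb and cortex, Dlgap1 differed by -0.0202 in 5mC and 0.0252 in 5hmC, and Dlgap2 by -0.00695 in 5mC and 0.0249 in 5hmC. The inner bin of Dlg2 was the only member bin with more of both marks in olfactory bulb than in cortex, by 0.0303 for 5mC and 0.0339 for 5hmC.

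**Figure D5:**
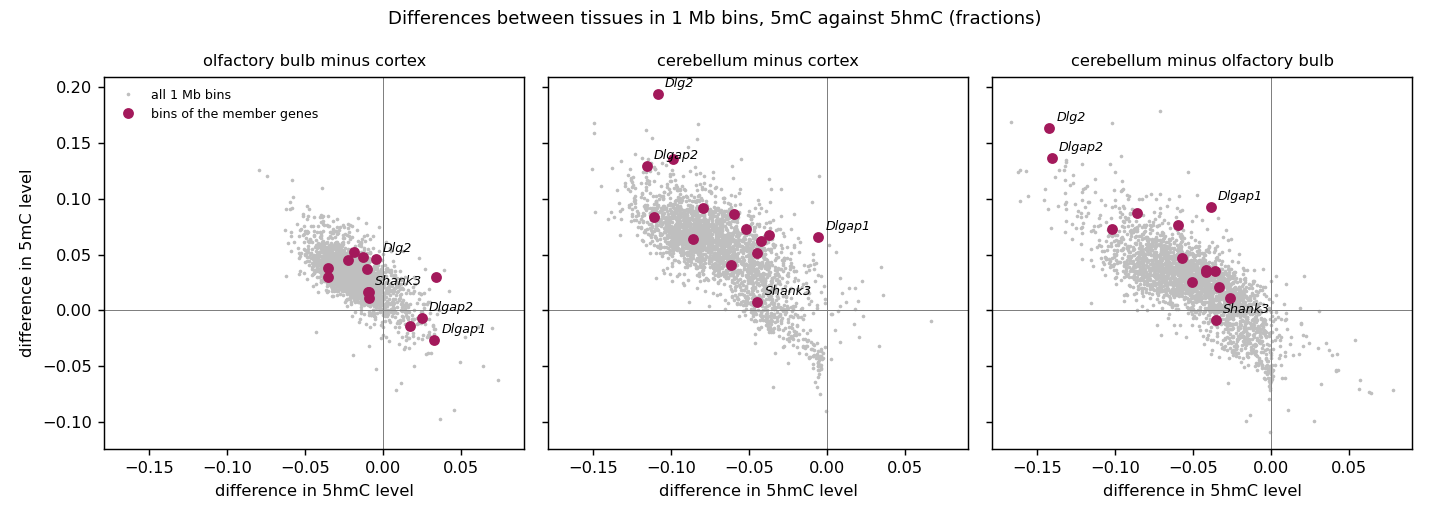
Difference in 5mC (y axis) against difference in 5hmC (x axis), both as fractions, in the 1 Mb bins of each pair of tissues, with the 14 member bins in purple over all bins in grey. In cerebellum minus cortex all 14 member bins have a mean with more 5mC and less 5hmC, the Shank3 bin by only 0.00719 in 5mC. The inner bin of Dlg2 lies outermost.

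Between cerebellum and cortex the sum of the marks differed by less than either mark in 7 of the 9 genes, the exceptions being Dlgap1 and Shank3. For Dlgap2 the sum was 0.838 in cortex beside 0.856 in olfactory bulb and 0.851 in cerebellum, while the share of it held by 5hmC was 25.6%, 28.0% and 11.6%. Dlgap1 had sums of 0.827, 0.832 and 0.867 and 5hmC shares of 23.8%, 26.7% and 19.9%. The sums of Dlg2 were 0.809, 0.852 and 0.852, and those of Magi2 were 0.867, 0.902 and 0.899. Shank3, read in a bin with 30 other coding genes, was lowest in cerebellum, with sums of 0.798, 0.805 and 0.761. Over the 14 member bins 5hmC held 24.5%, 23.4% and 16.0% of the sum in cortex, olfactory bulb and cerebellum, beside 19.4%, 16.9% and 11.4% over all bins. The sum adds levels of separate libraries, and its error is that of both assays together.

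Genes of the same families and their partners at the synapse were counted in the same way for 5mC. Of 7 other members of the Dlg, Dlgap, Magi and Shank families, 6 were higher in cerebellum than in cortex without overlap of libraries and 0 were lower, beside 65.1% higher and 6.22% lower among coding genes. Their differences ran from 0.0287 for Dlg3, an X-linked relative of Dlg4, to 0.143 for Magi3. Of 17 scaffold partners, 11 were higher and 1 was lower. Lrrc7, which encodes densin, a protein of the postsynaptic density, had the largest positive difference with 0.187, and Lin7a the largest negative one with -0.0320. Of 15 receptor and adhesion genes, 8 were higher and 3 lower. The range was widest here, from 0.203 for Grin2b to -0.187 for Grin2c, which encode NMDA receptor subunits typical of forebrain and of cerebellar granule cells. The medians of the 3 lists were 0.0767, 0.0366 and 0.0402. Grin2c is a short gene read in 1 bin, with levels of 0.521 in cortex against 0.548 in olfactory bulb and 0.334 in cerebellum. For 5hmC, 7 of 7, 17 of 17 and 14 of 15 genes in the 3 lists were lower in cerebellum than in cortex without overlap, beside 98.2% of coding genes.

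For the members with at least 3 bins, the coding gene with the nearest set of 3 tissue levels of 5mC was searched among 1563 genes. As the genes were chosen by these levels, a like order of tissues follows from the choice. For Dlgap1 it was Trim2, with 0.588 in cortex against 0.554 in olfactory bulb and 0.648 in cerebellum. For Dlgap2 it was Tenm4, with 0.629, 0.622 and 0.756, and for Dlg2 it was Ppp2r2b, with 0.584, 0.635 and 0.745. Magi1 was nearest to Dpp10, Magi2 to Fhod3, Shank2 to Myo1d and Dlg1 to Lrrc4. The distance, taken as the root of the summed squared differences of the 3 levels, was between 0.00740 for Magi1 and 0.0156 for Dlg2.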

How the data were processed

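Genomic DNA of cortex, olfactory bulb and cerebellum had been read by TAB-seq (5hmC) in 9 libraries and by oxBS-seq (5mC) in 7, grouped by the tissue in their labels. Reads had been aligned by the authors to mm10 with Bismark, keeping unique matches (version not given in the sources used here), and the deposited values are the level per bin as a fraction, without coverage. The sources do not state how sites or reads were combined. RNA-seq was not analysed here. The columns without a sample numbered 0.

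Bins at 0 or 1 in any library were left out, which removed no member bin. GENCODE M21 gave the gene spans, and RefSeq GRCm38.p6 the CG counts and promoters. The level of a gene was the unweighted mean over its bins in each library. limma 3.58.1 (R 4.3.3) was fitted per assay over all bins and the 3 tissues on log2(level/(1 − level)), with Benjamini-Hochberg adjustment and a threshold of 0.05. It gave nearly the same standard error to all bins, so a call hardly reflects the spread of its own bin. Tested on simulated data for cerebellum minus cortex, a change of 0.5 on that scale was found in 74% of 200 changed bins among 25664 bins of 5mC, a change of 1 in 100% and a change of 0.2 in 0%. Among 2581 bins of 5hmC the shares were 100%, 100% and 25.5%. Unchanged bins called were 8, 14 and 0 for 5mC and 6, 6 and 3 for 5hmC. The simulated noise was normal, independent between bins and of the fitted spread, without a shift of any library. Only 200 bins were changed, so these shares need not hold for the real libraries. Python 3.11.15 with pandas 2.3.3 and numpy 2.4.6 was used for the rest, and matplotlib 3.10.9 for the plots.

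All 9 genes are named. In genes with at least 3 bins, the bins with the lowest and the highest 5mC (mean of the 3 tissue levels) and with the largest gap between tissues are named, together with the runs of called bins and those with a RefSeq start, which were chosen after their values were seen. Of the related lists the genes with the largest difference in either direction are named, and for each gene with 3 bins or more the coding gene with the nearest tissue levels. The members and lists were chosen with earlier results of these data known. The alternatives were centring each library, the fraction scale, no filter on bins, with levels held within 0.001 and 0.999, limma with trend and robust options, the replicate number as a block, only bins wholly inside a gene, weights by overlap, the median over bins, flanks of 1 Mb, and leaving out each library. No batch is named in the labels. For 5hmC, olfactory bulb and cortex libraries with the same number deviated together over all bins (r of 0.126, 0.344 and 0.250, beside -0.287 to -0.0188 for different numbers), so the numbers were taken to pair them. That pairing comes from the data, since the labels do not say what a number marks. In the pairs with cerebellum, 5hmC libraries of different numbers reached r of 0.242 with cortex and 0.299 with olfactory bulb. Values of that size thus also occurred without a shared number. The r of different numbers is not separate evidence, because deviations within a tissue cancel out. The main fit held no block.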

Additional observations from a re-analysis of the deposited data

Results flagged for a closer look

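The 5mC level of 5 genes minus that of their 500 kb flanks was above 0 in every cerebellum library and below 0 in every library of the other tissues, and the difference between tissues was not tested. How many coding genes at large do the same is not given here. Between cerebellum and cortex the gap was 0.0846 for Dlg2, 0.0865 for Dlgap2, 0.0823 for Shank2, 0.0591 for Magi2 and 0.0526 for Magi1. Between cerebellum and olfactory bulb it was 0.0867 for Dlg2, 0.121 for Dlgap2, 0.0971 for Shank2, 0.0175 for Magi2 and 0.0714 for Magi1.

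For 5hmC in 1 Mb bins, 3 genes had every library of one tissue above the flanks and every library of another below, again untested and without a share over all coding genes. The flanks hold only 1 bin for Dlg2 and 2 bins each for Dlgap2 and Shank3, and Magi1 had no flank bin to compare. Dlg2 was above its flanks only in olfactory bulb, with a gap of 0.0266 between olfactory bulb and cortex and of -0.0283 between cerebellum and olfactory bulb. Dlgap2 was above them in cortex and olfactory bulb and below in cerebellum, with gaps of -0.0450 between cerebellum and cortex and -0.101 between cerebellum and olfactory bulb. Shank3 was above its flanks only in cerebellum, with gaps of 0.0386 against cortex and 0.0544 against olfactory bulb, in a bin of which it fills 6.06%.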

How the results depend on the processing

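Of 156 alternative values of the 15 counts and medians, 132 stayed within the spread between replicates (or 1.5 times a count), 19 moved beyond it and 5 changed direction. Of 582 for single genes, 28 changed sign, 13 of them for differences whose libraries did not overlap, which are given below. The remaining sign changes, 7 with library means subtracted and 8 under other settings, were of differences with overlapping libraries, at Dlg4, Shank2 and Shank3 for 5mC and at Dlg1, Dlg2, Magi2, Shank2 and Shank3 for 5hmC. With the mean of each library subtracted, the median 5mC difference became -0.0145 for olfactory bulb minus cortex (the value of Magi1), 0.0489 for cerebellum minus cortex and 0.0663 for cerebellum minus olfactory bulb, and Dlg4 turned to -0.0202 for cerebellum minus cortex. The 5hmC medians became 0.00902, 0.00682 and 0.000758 for these pairs. For cerebellum minus cortex the 5hmC difference turned to 0.0166 for Dlg1, 0.00682 for Dlg4, 0.0444 for Dlgap1, 0.0235 for Shank2 and 0.0237 for Shank3, and for cerebellum minus olfactory bulb to 0.00803, 0.0234, 0.000758, 0.0137 and 0.0147. The mean of all 5hmC bins differed by -0.0683 and -0.0498 in these pairs. Those genes were thus lower in cerebellum by less than the mean of all bins. With only bins wholly inside a gene, which drops Dlg4 and Shank3, the 5mC medians were 0.00128, 0.131 and 0.108, and Dlg1 turned to -0.000874 for olfactory bulb minus cortex. For 5hmC this left 1 bin of Dlg2, with 0.0339, -0.108 and -0.142, and 1 bin called in each pair. With the median over bins, cerebellum minus olfactory bulb was 0.0726 for 5mC, and weighted by overlap it was -0.0418 for 5hmC. With flanks of 1 Mb, the median of gene minus flank for 5mC was -0.0452 in place of -0.0276 in cortex, -0.0469 in place of -0.0424 in olfactory bulb, and 0.0128 in place of 0.00880 in cerebellum, and the cause was not tested.

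With each library left out in turn, the 5mC median for olfactory bulb minus cortex lay between 0.00433 and 0.0316, the latter without replicate 2 of olfactory bulb. The 5mC bins called for that pair were between 8 and 34, with 8 and 13 when replicate 1 or 2 of olfactory bulb was left out. The 5hmC bins called for it were between 5 and 8, with 5 without replicate 3 of olfactory bulb.

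Libraries of 5mC that share a number in the labels did not deviate together, with r between -0.0906 and 0.0158 over 6 pairs, nor did those of 5hmC in the pairs with cerebellum, with r between -0.229 and 0.0743. For 5hmC of olfactory bulb and cortex they did. The 6 pairs of 5mC are not independent, because the deviations of a tissue's libraries cancel out. With the replicate number as a block, 37, 65 and 61 bins were called for 5mC and 8, 13 and 14 for 5hmC, and the 5mC medians were 0.00433, 0.0949 and 0.0905. Only cortex has an oxBS-seq replicate 3, so the block takes up that library. The 5mC medians against cortex therefore repeat those without it and are no separate check. The 8 bins of 5hmC called between olfactory bulb and cortex were the same with the block fitted over those libraries alone, an alternative chosen after seeing the data, and the block changed no 5hmC call of another pair. For 5mC it kept 31, 65 and 59 of the 33, 66 and 59 calls. For oxBS-seq the numbers in the labels and in the deposited library names differ, and those of the labels were used. Without read counts, the precision of a single bin is unknown.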
